A study of Mus musculus with 9 samples.

Results

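The 10 genes described here belong to the insulin and insulin-like growth factor (IGF) receptor system and were measured in mouse islet cells. They are the receptors Insr, Igf1r and Insrr, the receptor substrates Irs1 and Irs2, the hormone gene Igf1, and the binding protein genes Igfbp3, Igfbp4, Igfbp5 and Igfbp7. They were taken by symbol from the 55536 genes in the deposited gene tables, and 8 of the 10 passed the filter on low counts, as did 15896 genes in all. Igf1 and Igfbp3 did not pass and are given as counts. The RNA came from C57B/L6 mice 12 weeks old whose islets were hand-picked, kept overnight in culture, dispersed and sorted by flow cytometry on the surface proteins CD24 and CD71. Cells low in CD24 and negative for CD71 formed the alpha-enriched subset, cells low in CD24 and positive for CD71 the beta-enriched subset, and cells high in CD24 the delta-enriched subset. Each subset had 3 libraries, the labels name no transgene or drug treatment, and they do not say whether libraries came from separate animals, so the p-values measure only the spread between these samples.

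Insulin and the IGFs act through related receptor tyrosine kinases. The insulin receptor (Insr) and the IGF1 receptor (Igf1r) form homodimers and hybrids with each other, and the insulin receptor-related receptor (Insrr) is a family member that responds to alkaline pH and not to insulin. The activated receptors phosphorylate the docking proteins Irs1 and Irs2, which recruit PI3 kinase and so activate Akt. Beta cells secrete insulin and carry its receptor, and in mice loss of Irs2 leads to failure of beta cell mass, whereas loss of Irs1 mainly slows growth. IGF binding proteins hold IGFs outside the cell, and proteases of the pappalysin family free them by cleavage.

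The 9 libraries held 5663141 to 9529920 expected counts each. The hormone genes followed the sort. Mean levels in CPM (counts relative to the TMM-scaled library size) in the alpha-, beta- and delta-enriched subsets were 89394, 393 and 4380 for Gcg (glucagon), 2325, 25947 and 191 for Ins2 (insulin), and 37.8, 1.57 and 17221 for Sst (somatostatin). In beta replicate 2, 34.4% of counts fell on 1 ribosomal RNA locus, against 3.15% to 5.37% in the other libraries. The summed level of 12 acinar cell markers was 3206 CPM in delta replicate 3, against 210 to 312 CPM in the other delta, 70.1 to 610 CPM in the alpha and 27.7 to 80.4 CPM in the beta libraries. With both of these libraries left out, 5, 4 and 3 members passed the test, against 6, 5 and 4 with all libraries. These counts are for beta against alpha, beta against delta and alpha against delta, in that order. Calls over all genes fell as well, to 3231, 3678 and 3278 from 4231, 4869 and 3868. In these bulk samples, fewer cells of a type and less RNA per cell cannot be told apart.

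Differences between subsets were tested with edgeR's quasi-likelihood test on the rounded counts, with Benjamini-Hochberg adjustment over all 15896 genes and a threshold of 0.05. Of the 8 members tested, 4 were higher and 2 lower in the beta- than in the alpha-enriched subset, where 26.6% of all genes tested were called, 14.8% as higher and 11.9% as lower in beta. This balance depended on the scaling, with 2345 genes higher and 1886 lower here and 1959 and 2348 with upper-quartile factors. Against the delta-enriched subset 3 members were higher and 2 lower in beta, where 30.6% of all genes were called, 15.4% as higher and 15.3% as lower. In alpha against delta 1 member was higher and 3 were lower in alpha, where 24.3% of all genes were called, 11% as higher and 13.3% as lower. The median log2 fold change of the 8 members was 0.43, -0.06 and -0.10 in these comparisons, beside -0.02, -0.02 and -0.01 over all genes. Igfbp4, counted among the lower in beta against alpha and the only one higher in alpha against delta, passed the filter through the alpha libraries alone. The members were called in both directions, and the receptors, substrates and binding proteins are taken in turn. The 3 comparisons share libraries pairwise, so their results are not independent of each other.

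**Figure D1:**
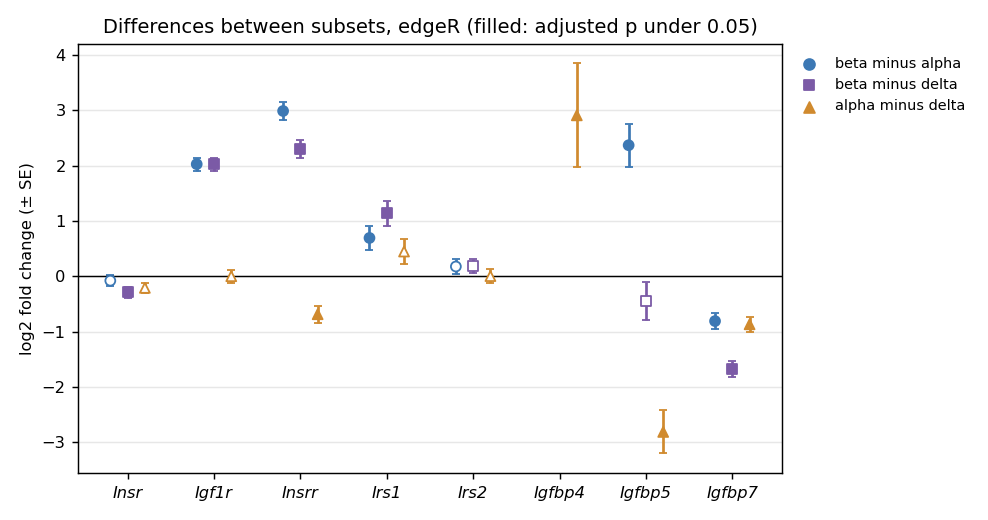
Log2 fold change between subsets (y axis, edgeR fit, bars ± SE) of the 8 tested members (x axis), with a filled symbol where the adjusted p was under 0.05. Igf1r and Insrr lie above 2 in both beta comparisons, Igfbp7 lies below 0 in all 3, and the Igfbp4 comparisons with the beta-enriched subset are not drawn because all 3 beta libraries had 0 counts.

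The IGF1 receptor gene was about 4-fold higher in beta-enriched cells than in either other subset. Igf1r (ENSMUSG00000005533, GRCm38 chr7:67952827-68233668, plus strand) stood at 629, 562 and 573 CPM in beta replicates 1 to 3. It stood at 167, 116 and 151 CPM in the alpha replicates and at 139, 152 and 142 CPM in the delta replicates. All 3 beta libraries lay above every other library, while the alpha and delta libraries overlapped. The log2 fold change was 2.03 (SE 0.12, adjusted p = 6.37e-10 by edgeR) against alpha, a 4.07-fold difference with a 95% interval of 3.43 to 4.83, and 2.03 (SE 0.12, adjusted p = 5.34e-10) against delta. Between alpha and delta no difference was detected, with a log2 fold change of 0.00 and a 95% interval of 0.847 to 1.18 for the fold.

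The related receptor Insrr (ENSMUSG00000005640, chr3:87796951-87816101, plus strand) had the largest fold of the 3 receptor genes. Its level was 321, 291 and 343 CPM in the beta libraries, 44.1, 38.3 and 38.1 CPM in the alpha libraries and 45.5, 76.5 and 72.2 CPM in the delta libraries. The beta libraries lay far above the rest, and every delta library lay above every alpha library, delta replicate 1 only narrowly. In beta Insrr was 7.92-fold above alpha (2.99 on the log2 scale, SE 0.16, adjusted p = 1.92e-09 by edgeR) and 4.92-fold above delta (2.30, SE 0.16, adjusted p = 2.35e-08). Alpha was lower than delta by a log2 fold change of -0.69 (SE 0.16, adjusted p = 0.00475), a call lost on log2(TPM + 1), where the difference was -0.38 (adjusted p = 0.467 by limma). The whole of Insrr lies inside Pear1, a gene on the opposite strand that had 0 to 21 counts in any library.

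The insulin receptor itself was nearly level across the subsets. Insr (ENSMUSG00000005534, chr8:3122061-3279617, minus strand) stood at 105, 102 and 107 CPM in the alpha, 103, 95.8 and 97.7 CPM in the beta and 115, 121 and 126 CPM in the delta libraries. The delta libraries were the highest, and the alpha and beta libraries overlapped. Beta against alpha gave a log2 fold change of -0.08 with a 95% interval of -0.28 to 0.12 (adjusted p = 0.612 by edgeR), and alpha against delta gave -0.21 (SE 0.09, adjusted p = 0.122). Beta was lower than delta (log2 fold change -0.29, SE 0.09, adjusted p = 0.027). That call was lost with no filter on low counts (adjusted p = 0.088) and when any 1 beta library or delta replicate 3 was left out, and the direction turned on log2(TPM + 1), with a difference of 0.014 beside a median of 0.10 over all genes on that scale.

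**Figure D2:**
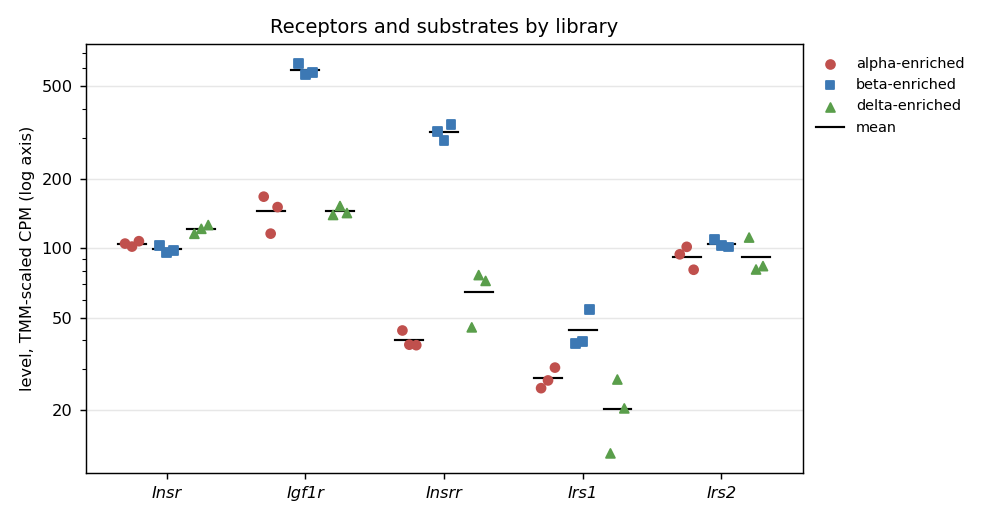
Level in TMM-scaled CPM (log axis) of the receptor and substrate genes in each library, with 3 points per subset and a bar at their mean. The beta-enriched libraries stand apart for Igf1r (562 to 629 CPM) and Insrr (291 to 343 CPM), while Insr and Irs2 lie near 100 CPM in all subsets.

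Set against each other within a library, the 2 main receptor genes stood in different proportions in the subsets. TPM values, which account for transcript length as well as depth, were used here because levels of different genes are compared. The ratio of Igf1r to Insr was 4.19, 3.60 and 4.14 in the beta libraries, 1.15, 0.898 and 1.12 in the alpha libraries and 1.004, 1.16 and 0.673 in the delta libraries. The beta ratios lay above all others, and the alpha and delta ratios overlapped around equal levels. As log2 ratios the means were 1.99 ± 0.12 in beta, 0.07 ± 0.20 in alpha and -0.12 ± 0.41 in delta (SD, n = 3, exact permutation tests following). Beta exceeded alpha by 1.92 and delta by 2.10 on the log2 scale, each with an exact permutation p = 0.1 (two-sided, 0.15 after adjustment over the 3 pairs), which is the smallest p that 3 against 3 can give. Alpha and delta differed by 0.19 (exact permutation p = 0.7). The effective lengths behind these TPM values varied between libraries, 1.36-fold for Insr and 1.38-fold for Igf1r. On CPM, which does not account for length, the log2 ratios were 2.57 ± 0.03 in beta, 0.45 ± 0.25 in alpha and 0.26 ± 0.08 in delta (SD, n = 3).

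**Figure D3:**
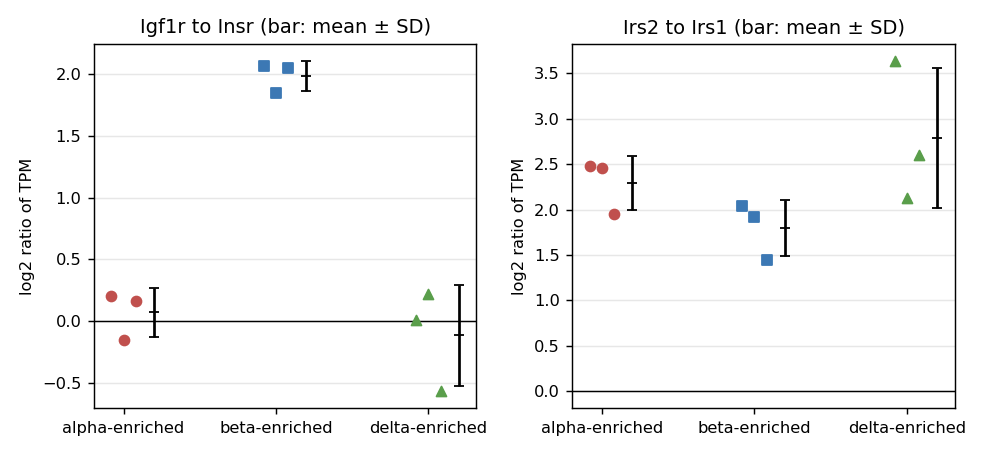
Log2 ratio of TPM of Igf1r to Insr (left) and of Irs2 to Irs1 (right) in each library, with the mean ± SD of each subset as a black bar. The 3 beta-enriched libraries hold Igf1r at about 4 times Insr, whereas the Irs2 to Irs1 ratio lies above 0 in every library, with every delta-enriched library above every beta-enriched one.

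The substrate gene Irs1 was higher in beta-enriched cells, whereas Irs2 was not called between any subsets. Irs1 (ENSMUSG00000055980, chr1:82233101-82291416, minus strand) stood at 38.7, 39.6 and 54.5 CPM in the beta libraries, 24.8, 26.8 and 30.5 CPM in the alpha libraries and 13.0, 27.1 and 20.3 CPM in the delta libraries. Every beta library lay above every alpha and delta library, and the alpha and delta libraries overlapped. The log2 fold change was 0.69 (SE 0.22, adjusted p = 0.0261 by edgeR) against alpha and 1.14 (SE 0.22, adjusted p = 0.000778) against delta. The difference from alpha lost its call without alpha replicate 1, alpha replicate 2 or beta replicate 3, with upper-quartile scaling (adjusted p = 0.0534) and on log2(TPM + 1), where that from delta was lost as well. Alpha against delta gave 0.45 (adjusted p = 0.17), which passed without delta replicate 2 at 0.72 (adjusted p = 0.0233). Irs1 shares 2822 bases with Gm9747, a gene on the opposite strand that had 0 to 37 counts in any library.

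Irs2 (ENSMUSG00000038894, chr8:10984681-11008458, minus strand), the substrate gene more tied to beta cell mass, stood at 94.1, 101 and 80.7 CPM in the alpha, 109, 102 and 101 CPM in the beta and 111, 80.9 and 83.6 CPM in the delta libraries. All 3 subsets overlapped. The fold of beta over alpha was 1.13 with a 95% interval of 0.937 to 1.36 (adjusted p = 0.366 by edgeR), and that over delta was 1.13 with an interval of 0.938 to 1.37 (adjusted p = 0.325). Without delta replicate 1 the latter passed, at a log2 fold change of 0.34 (adjusted p = 0.0275). Alpha and delta gave a log2 fold change of 0.00 with an interval of -0.27 to 0.27.

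On the TPM scale Irs2 stood above Irs1 in all 9 libraries. The log2 ratio of Irs2 to Irs1 was 1.80 ± 0.31 in beta, 2.30 ± 0.30 in alpha and 2.79 ± 0.77 in delta (SD, n = 3, exact permutation tests following). Beta was below alpha by -0.50 (exact permutation p = 0.2) and below delta by -0.99 (exact permutation p = 0.1, 0.3 after adjustment over the 3 pairs). Every delta ratio lay above every beta ratio, while the alpha ratios overlapped with both. As 3 against 3 cannot give a p below 0.1, these tests could not pass the threshold and do not decide whether the ratio differs.

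The bases just upstream of both substrate genes share a short element, which is shown beside the region of Igf1r, the only receptor gene matched. Each line gives the 250 bases before the RefSeq start on GRCm38.p6, 5′ to 3′ on the gene's strand. Of the 10 members 8 were matched, all but Insr and Insrr, which were not searched. Capitals mark matches on either strand to the GC box GGGCGG, the E-box CACGTG, the cyclic AMP response core TGACG and the insulin response element CAAAACAA, whose reverse complement is TTGTTTTG. The last is an element at which FOXO factors can act, and the forkhead letters GTAAACA were searched as well.
Irs1 chr1:82291440-82291689, minus strand: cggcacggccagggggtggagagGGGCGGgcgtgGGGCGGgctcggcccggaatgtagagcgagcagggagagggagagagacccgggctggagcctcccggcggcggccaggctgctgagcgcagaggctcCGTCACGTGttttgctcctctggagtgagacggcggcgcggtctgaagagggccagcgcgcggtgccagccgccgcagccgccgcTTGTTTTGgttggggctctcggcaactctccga
Irs2 chr8:11008930-11009179, minus strand: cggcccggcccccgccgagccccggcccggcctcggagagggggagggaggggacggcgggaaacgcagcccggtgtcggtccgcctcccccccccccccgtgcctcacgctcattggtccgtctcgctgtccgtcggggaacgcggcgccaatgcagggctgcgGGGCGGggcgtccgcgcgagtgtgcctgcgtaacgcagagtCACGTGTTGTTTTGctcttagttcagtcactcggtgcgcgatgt
Igf1r chr7:67952007-67952256, plus strand: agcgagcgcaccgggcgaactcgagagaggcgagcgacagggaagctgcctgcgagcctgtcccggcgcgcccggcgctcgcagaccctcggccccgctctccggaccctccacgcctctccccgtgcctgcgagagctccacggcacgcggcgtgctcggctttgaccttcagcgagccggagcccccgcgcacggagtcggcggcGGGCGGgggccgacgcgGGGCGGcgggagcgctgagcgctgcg

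In Irs1 the insulin response element began 33 bases before the start, and in Irs2 it began 38 bases before it, directly after an E-box. Irs1 also held an E-box that began 115 bases before the start and overlapped a cyclic AMP response core that began at 118. The insulin response element stood in 2.21% and the E-box in 6.02% of the 32851 promoter windows of the same 250 bases, and among the 8 matched members only Irs1 and Irs2 held either. Igf1r held 2 GC boxes, a motif found in 32.7% of windows, and no match to the other 4 motifs. Its window was 77.6% G and C with 42 CpG pairs, against medians of 52.4% and 6 over all windows. The forkhead letters GTAAACA, found in 3.17% of windows, were in none of the 8. These matches describe letters in the window only. Of the pair that held the element, Irs1 was called between subsets and Irs2 was not, and whether the genes differ from each other in this was not settled by the ratio.

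The hormone gene Igf1 (ENSMUSG00000020053, chr10:87858265-87937042, plus strand), whose product is made mainly in liver and by stromal and immune cells, was nearly undetected. It had 1, 5 and 0 counts in alpha replicates 1 to 3 and 0 counts in all 6 other libraries, where 3 counts, the limit that a count of 0 allows, correspond to 0.385 to 0.514 CPM per library. Igfbp3 (ENSMUSG00000020427, chr11:7206086-7213923, minus strand), the main carrier of IGFs in blood, had 2 counts in alpha replicate 2, 3 counts in beta replicate 3 and 0 in the other 7 libraries. No fold is given for either gene, since most groups were at or under that limit. Intervals and limits of this kind cover counting error only.

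Igfbp4, which encodes an IGF binding protein, was found in the alpha-enriched libraries and at few or no counts elsewhere. Igfbp4 (ENSMUSG00000017493, chr11:99041244-99054392, plus strand) had 14, 41 and 14 counts in the alpha libraries, 0 in all 3 beta libraries and 0, 5 and 3 in the delta libraries. The alpha levels were 1.59, 5.16 and 1.98 CPM, and none of the other 6 libraries exceeded 0.756 CPM. The gene passed the filter on low counts through the alpha libraries alone, so a difference from the other subsets was built into its being tested, and the comparisons are given as a description. Alpha was at least 19.0-fold higher than beta, taking 3 counts over the beta group as the limit (adjusted p = 0.0018 by edgeR), a call lost on log2(TPM + 1) (adjusted p = 0.187 by limma). Alpha was higher than delta by a log2 fold change of 2.91 (SE 0.94, adjusted p = 0.0344), but this call was lost when any 1 library other than delta replicate 2 was left out and on log2(TPM + 1), and without alpha replicate 2 it was 2.22 (adjusted p = 0.228). Delta and beta overlapped at 0 and were not called (adjusted p = 0.0838).

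The summed mesenchymal and stellate markers were, like Igfbp4, highest in the alpha libraries. The highest endothelial sum was in delta replicate 3 and the highest immune sum in delta replicate 2. Delta replicate 1 was lower, with an endothelial sum of 3.41 CPM, against 4.41 CPM in alpha replicate 2. Its immune sum was 5.74 CPM, against 9.41 CPM in beta replicate 3. The summed level of 10 mesenchymal and stellate cell markers was 13.4, 52.1 and 16.9 CPM in alpha replicates 1 to 3, 1.28 to 1.54 CPM in the beta and 3.41 to 9.12 CPM in the delta libraries. All 10 of these markers were detected in alpha replicate 2, the library with the highest Igfbp4, Igf1 and Igfbp5 of its subset. Col1a1, Col3a1, Dcn, Lum and Cspg4 were at 0 in every beta and delta library. Rgs5 and Acta2 went the other way and were highest in delta replicate 3, at 6.55 and 0.899 CPM. Their highest levels in alpha were 4.66 and 0.423 CPM. Endothelial markers summed to 1.67 to 9.12 CPM over all libraries with Tie1, Plvap and Cldn5 at 0 throughout, and 8 immune markers summed to 5.74 to 13.2 CPM, highest in delta replicate 2. Of these, Ptprc, Adgre1 and Cd3e were at 0 throughout, while C1qa had 19 to 64 counts and Cd68 4 to 19 counts in every library. The part of mesenchymal or immune cells in the levels of Igfbp4 and Igf1 was not tested.

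Igfbp5 was lower in alpha-enriched cells than in both other subsets. Igfbp5 (ENSMUSG00000026185, chr1:72857932-72874884, minus strand), which encodes a binding protein that can also attach to matrix, stood at 1.25, 5.67 and 2.54 CPM in the alpha libraries, 18.1, 18.3 and 12.2 CPM in the beta libraries and 27.2, 21.6 and 17.6 CPM in the delta libraries. All alpha libraries lay below the rest, and the beta and delta libraries overlapped. Beta was 5.16-fold above alpha (log2 fold change 2.37, SE 0.39, adjusted p = 0.000284 by edgeR) and delta was 7.03-fold above alpha (alpha minus delta -2.81, SE 0.39, adjusted p = 6.29e-05). Without alpha replicate 2 these grew to 3.11 and -3.55. Beta against delta gave -0.45 with a 95% interval of -1.17 to 0.28 (adjusted p = 0.362).

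Igfbp7 was the most abundant binding protein gene and differed between all 3 subsets. Igfbp7 (ENSMUSG00000036256, chr5:77349240-77408041, minus strand), which encodes a secreted relative of the IGF binding proteins with low affinity for IGFs, stood at 131, 117 and 109 CPM in the delta libraries, 67.3, 70.9 and 57.0 CPM in the alpha libraries and 43.0, 39.1 and 29.0 CPM in the beta libraries. No library of 1 subset overlapped with another subset. The summed level of 3 markers of PP cells, which make pancreatic polypeptide, had the same order, at 4358 to 6277 CPM in delta, 2747 to 3832 CPM in alpha and 62.4 to 90.4 CPM in beta. Of the 3, only Pyy had this order itself, at 2882 to 4131 CPM in delta and 1076 to 1411 CPM in alpha. Mean Ppy was higher in alpha (2014 CPM) than in delta (1709 CPM). Sertm1 was at 12.0 to 15.7 CPM in alpha and 0.273 to 1.16 CPM in delta. The part of PP cells was not tested. Delta was 3.20-fold above beta (beta minus delta -1.68, SE 0.14, adjusted p = 8.41e-08 by edgeR) and 1.83-fold above alpha (alpha minus delta -0.87, SE 0.14, adjusted p = 0.000143). Beta was below alpha by a log2 fold change of -0.81 (SE 0.14, adjusted p = 0.00034). On log2(TPM + 1) alpha and delta differed by -0.61 and no longer passed (adjusted p = 0.0864 by limma). Igfbp7 shares 85 bases at its end with Polr2b on the opposite strand, which had 580 to 774 counts per library.

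**Figure D4:**
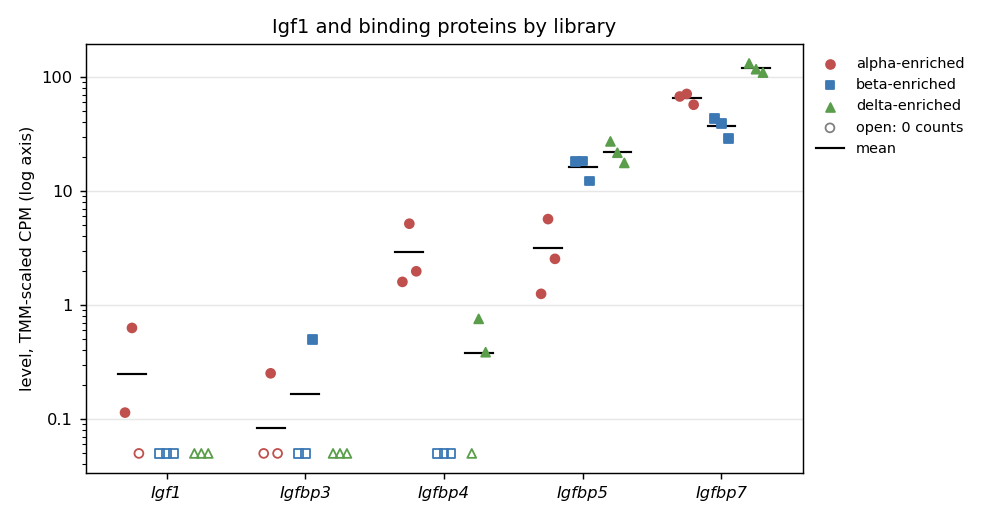
Level in TMM-scaled CPM (log axis) of Igf1 and the binding protein genes in each library, with a bar at the mean and open symbols at the foot of the axis for libraries with 0 counts. Igfbp4 is highest in the alpha-enriched libraries, Igfbp5 is lowest there (1.25 to 5.67 CPM), and Igfbp7 is highest in the delta-enriched and lowest in the beta-enriched libraries (29.0 to 43.0 CPM).

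Ordered by TPM within each subset, Igfbp7 led in delta (58.4) and alpha (37.9), while Insrr (37.5) and Igf1r (34.8) led in beta, ahead of Igfbp7 (20.5). The ranges of Insrr and Igf1r overlapped in beta, but Insrr was above Igf1r in all 3 libraries. In alpha, Igf1r (9.26), Insr (8.70) and Irs2 (7.91) overlapped, followed by Insrr (4.77) and Irs1 (1.65). In delta, Insr (8.63), Igf1r (7.89), Insrr (6.84) and Irs2 (6.64) lay close together, followed by Igfbp5 (1.73) and Irs1 (1.05). Mean Insr was 8.70 TPM in beta and 8.70 TPM in alpha. The effective transcript length used for TPM varied 12.9-fold between libraries for Igfbp4 and 15.4-fold for Igf1, so their TPM values are not ranked here.

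Of the 8 members tested, 6 did not overlap between beta and alpha libraries, 5 between beta and delta, and 5 between alpha and delta, where 45.5%, 42.6% and 36.1% of all genes tested did not overlap. Igf1r and Irs1 split beta from the other subsets, Igfbp5 split alpha and Insr split delta, while Insrr and Igfbp7 did not overlap between any 2 subsets. Igfbp4 was counted in both comparisons with alpha. It passed the filter through the alpha libraries alone, so its separation was built in and is a description only. The 9 beta cell markers summed to 51701 to 62801 CPM in the beta libraries, 4496 to 6516 CPM in the alpha and 5890 to 7165 CPM in the delta libraries. Most of the delta sum was Iapp, at 5664 to 6987 CPM in delta and 1420 to 2096 CPM in alpha. Ins2 was higher in alpha than in delta (by 3.60 on the log2 scale, SE 0.69, adjusted p = 0.0115 by edgeR), while mean Igf1r was 144 CPM in both. The part of beta cells in the alpha and delta libraries was not tested.

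For each member with a call, the genes outside the 10 with the nearest pattern over the 9 libraries were taken, and how near they came differed between members. Likeness was the root mean square difference of log2(CPM + 0.5) after centring each gene, over 9386 genes of at least 10 CPM in the highest subset. A smaller value means a closer pattern. Igf1r was most like Pitpnm3 (0.173), Slc4a7 (0.194) and Atp2a2 (0.194), the last encoding the calcium pump of the endoplasmic reticulum. Atp2a2 stood at 2095 ± 135 CPM in beta, 592 ± 62.1 in alpha and 448 ± 32.5 in delta (SD, n = 3). Insrr was most like Adra2a (0.274), Gng12 (0.305) and Chst11 (0.346). Adra2a, the gene of an alpha-2 adrenergic receptor through which adrenaline restrains secretion of insulin, was at 74.6 ± 0.717 CPM in beta, 10.9 ± 0.711 in alpha and 15.4 ± 1.31 in delta. Irs1 was most like Aacs (0.146), Elf3 (0.163) and Sqor (0.183), Igfbp7 like Ccdc184 (0.144), Slc5a3 (0.168) and Fam149a (0.195), and Igfbp5 like Cfap54 (0.413), Pcdha9 (0.431) and Mpp3 (0.434). Insr, which varied least, was most like Arhgap21 (0.0249), Ankrd11 (0.0387) and Hjurp (0.0495), and Igfbp4 was most like Sptb (0.445), Gm20721 (0.495) and Reep1 (0.501). For Igfbp4, with 0 counts in all beta libraries, these values depend on the added 0.5.

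A further 67 genes of the pathway in 7 lists were read from the same fit, and 56 of them were tested. In beta against alpha 22 were higher and 6 lower, in beta against delta 22 were higher and 8 lower, and in alpha against delta 12 were higher and 8 lower. That was 50%, 53.6% and 35.7% of those tested, beside 26.6%, 30.6% and 24.3% of all genes. With beta replicate 2 and delta replicate 3 both left out, 26, 23 and 18 passed. Of all genes, 3231, 3678 and 3278 passed then, against 4231, 4869 and 3868 with all libraries. Igfbp2, Igfbp6 and Igfbpl1 had 0 counts in all libraries.

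All 3 ligand genes and Igfals, the only 1 tested of 5 other binding protein and carrier genes, were higher in beta than in alpha and delta. That was 100% of those tested, beside 26.6% of all genes called against alpha and 30.6% against delta. Of all genes, 14.8% and 15.4% were called as higher in beta in these comparisons. Ins1 and Ins2 are also among the beta cell markers. Ins1 stood at 11154 CPM and Ins2 at 25947 CPM in beta. Igf2 was at 4.62, 2.57 and 4.46 CPM in the beta libraries and at 0 to 1.03 CPM in the others. Its log2 fold change over alpha was 3.29 (SE 0.84, adjusted p = 0.00661 by edgeR), and its calls were lost without beta replicate 1. Igfals, which encodes the acid-labile subunit that stabilises IGF complexes in blood, stood at 27.5, 30.7 and 29.9 CPM in beta, 11.3, 10.96 and 13.5 CPM in alpha and 2.60, 6.20 and 5.91 CPM in delta. The 3 subsets did not overlap, with log2 fold changes of 1.30 (beta over alpha, adjusted p = 0.000603), 2.58 (beta over delta, adjusted p = 8.09e-07) and 1.28 (alpha over delta, adjusted p = 0.00185).

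The protease list was led by Pappa2, an IGF binding protein protease gene, which was high in alpha-enriched cells. Pappa2 stood at 1577, 1520 and 1137 CPM in the alpha libraries, 111, 111 and 37.8 CPM in the beta libraries and 115, 80.1 and 96.6 CPM in the delta libraries. The alpha libraries lay far above the others, and the beta and delta libraries overlapped. Beta was below alpha by -4.03 (SE 0.45, adjusted p = 0.000769 by edgeR) and alpha above delta by 3.86 (SE 0.45, adjusted p = 0.00108), and both calls were kept in every setting run. Its relative Pappa and their inhibitor Stc1 were higher in delta than in beta at low levels. Pappa was at 2.46, 3.33 and 8.99 CPM in the delta libraries, the highest being the library with the high acinar markers, and at 0 to 0.343 CPM in beta, and its call (adjusted p = 0.01 by edgeR) was lost in 5 of 21 settings, among them without beta replicate 1 and on log2(TPM + 1). Stc1 was at 2.87, 6.65 and 3.47 CPM in delta and at 0 to 0.165 CPM in beta (adjusted p = 0.000481). Of the 4 genes tested in this list, 0 were higher in beta and 1 was lower against alpha and 2 against delta. That was 25% and 50% of those tested, beside 26.6% and 30.6% of all genes.

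Among other substrates, Gab1 went the other way from Irs1. Gab1, a docking protein gene, stood at 4.37, 2.74 and 3.30 CPM in the beta libraries, 22.9, 27.1 and 21.7 CPM in the alpha libraries and 27.2, 36.0 and 23.5 CPM in the delta libraries. Beta was lower than alpha by -2.76 (SE 0.24, adjusted p = 1.34e-07 by edgeR) and lower than delta by -3.03 (SE 0.24, adjusted p = 3.77e-08). The adaptor gene Shc1 and the clearance receptor gene Igf2r were higher in beta, at 187 and 251 CPM, than in alpha, at 96.1 and 192 CPM, or delta, at 75.7 and 149 CPM, and their calls against alpha were lost on log2(TPM + 1). In this list 2 of 5 tested genes were higher and 1 lower in beta in both comparisons. That was 60% of those tested in each, beside 26.6% of all genes against alpha and 30.6% against delta.

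The adaptors and brakes on the receptor split in both directions, with 7 of 16 tested genes higher and 4 lower in beta than in alpha, and 5 higher and 3 lower than in delta. That was 68.8% and 50% of those tested, beside 26.6% and 30.6% of all genes. Grb10, which encodes an inhibitory adaptor of both receptors, stood at 350, 298 and 289 CPM in alpha, 94.1, 59.8 and 70.1 CPM in beta and 109, 113 and 120 CPM in delta. Alpha was above beta (beta minus alpha -2.06, SE 0.14, adjusted p = 8.41e-09 by edgeR) and above delta (1.46, SE 0.14, adjusted p = 4.73e-07). The phosphatase genes Ptprf and Ptpn11 were higher in beta than in alpha by log2 fold changes of 0.90 (SE 0.10, adjusted p = 1.96e-06) and 0.86 (SE 0.12, adjusted p = 2.31e-05). Enpp1, named after its values were seen because its fold was the largest among the called genes of this list, encodes a membrane protein that inhibits the insulin receptor. It had 39, 25 and 28 counts in the alpha libraries, 4, 2 and 0 in beta and 3, 26 and 34 in delta. Beta was lower than alpha (adjusted p = 0.00443 by edgeR) and than delta (adjusted p = 0.00953), where delta replicate 1 was as low as beta replicate 1.

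**Figure D5:**
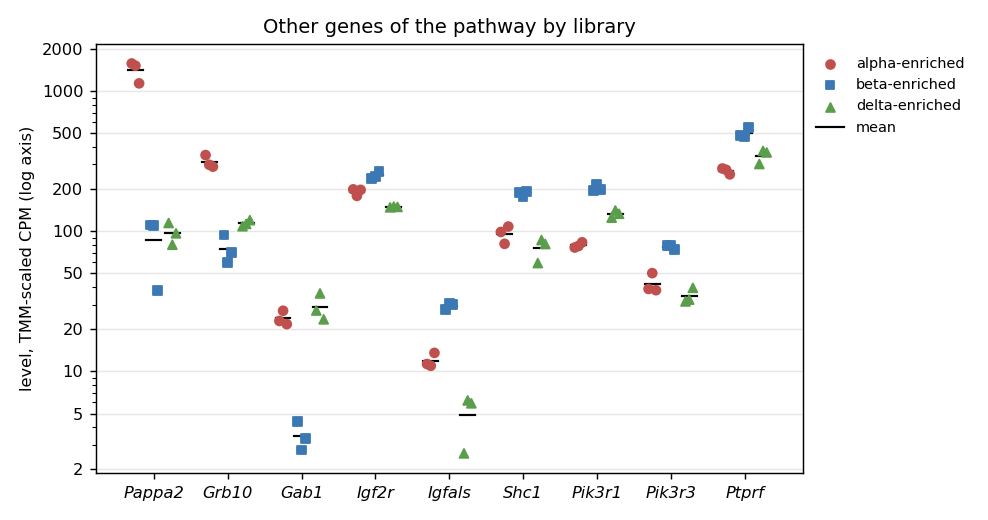
Level in TMM-scaled CPM (log axis) of 9 other genes of the pathway in each library, with a bar at the mean. Pappa2 and Grb10 are highest in the alpha-enriched libraries, Gab1 is lowest in the beta-enriched libraries, and Shc1, Pik3r1, Pik3r3 and Ptprf are highest there.

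Downstream of the receptors, the PI3 kinase and Akt genes that were called were mostly higher in beta, with 6 of 15 higher and 0 lower than in alpha and 8 higher and 1 lower than in delta. That was 40% and 60% of those tested, beside 26.6% and 30.6% of all genes. Of all genes, 14.8% and 15.4% were called as higher in beta in these comparisons. Pik3r1, a regulatory subunit of PI3 kinase, stood at 195, 217 and 198 CPM in beta, 76.6, 78.4 and 83.4 CPM in alpha and 125, 141 and 133 CPM in delta. It was higher in beta than in alpha by 1.35 (SE 0.10, adjusted p = 8.28e-09 by edgeR) and than in delta by 0.61 (SE 0.09, adjusted p = 6.83e-05), the latter lost on log2(TPM + 1). Pik3r3 was higher in beta than in alpha by 0.87 and than in delta by 1.16, and Akt2, the kinase gene most tied to insulin action on glucose uptake, by 0.49 and 1.02. Pdpk1, the kinase gene upstream of Akt, was higher in beta by 0.36 and 0.70. The calls of Pik3r3, Akt2 and Pdpk1 against alpha were lost in 3, 7 and 5 settings, and those against delta in 1, 1 and 3. In the mTOR arm 3 of 12 genes were higher and 0 lower in beta than in alpha, and 3 were higher and 1 lower than in delta. These were 25% and 33.3% of those tested, near the shares of all genes. Deptor, an inhibitor of mTOR, was at 246 CPM in beta, 145 CPM in alpha and 191 CPM in delta, and Eif4ebp1, a brake on translation, was higher in beta than in alpha by 1.44 (SE 0.28, adjusted p = 0.000702). Mtor itself was higher in beta by 0.57 (adjusted p = 0.00397) than in alpha and by 0.60 (adjusted p = 0.00235) than in delta, and Eif4ebp2 was called against delta at 0.47 (adjusted p = 0.00361) but not against alpha at 0.21 (adjusted p = 0.189).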

How the data were processed

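RNA was measured in 9 libraries of sorted mouse islet cells, grouped into 3 subsets as labelled. Total RNA was primed at random and made into strand-specific libraries (NuGEN Ovation Solo, ribosomal RNA depleted) for paired reads on a NextSeq 500, per the labels' protocols. The submitters' processing notes name STAR 2.5.2b, GRCm38.p6, DESeq2 1.22.1 with R 3.5.1, and RSEM without a version. Not given in the sources used here is the strand setting of the counting. Per the file headers, the tables deposited for each library give the RSEM expected count, TPM, FPKM and effective length of 55536 genes. RSEM splits reads among genes, which left 6.94% to 8.66% of the deposited expected counts in a library with a fractional value. FPKM, as deposited, went into no test, and the deposited normalised signal of 17993 genes served as an alternative only. Symbols and coordinates came from GENCODE M21.

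Expected counts were rounded, filtered with filterByExpr, scaled with TMM and fitted with edgeR 4.0.16 (R 4.3.3, robust quasi-likelihood) over all 9 libraries, 1 coefficient per subset. The fit had a common biological coefficient of variation of 0.212 and 6 residual degrees of freedom, and was tested on simulated counts. Tests were two-sided with Benjamini-Hochberg adjustment over 15896 genes at 0.05. Adjusted p-values are from edgeR unless limma 3.58.1 or DESeq2 1.42.0 is named. Ratios used TPM per library with exact permutation tests. The members and gene lists were chosen with earlier results of these data known. All members were described, and of the other pathway genes up to 4 per list with the smallest p were named. Of the genes so taken, 1 is not reported here. Alternatives were other scalings, filters, tools and units, left-out libraries and a replicate block. Rescaling TPM without 360 ribosomal and 7S RNA genes was chosen after seeing the data.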

Additional observations from a re-analysis of the deposited data

How the results depend on the processing

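The higher levels of Igf1r and Insrr in beta than in alpha and delta kept their direction and their side of the threshold in every setting run, with log2 fold changes of Igf1r over alpha from 1.88 to 2.14 when 1 library was left out. Of 1663 values of single genes under alternatives, 1452 kept direction and side of the threshold, 186 lost and 4 gained a call, and 21 changed sign. The cause of the changes below was not tested.

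Fewer genes passed on TPM than on counts. Limma on log2(TPM + 1) called 1765, 2446 and 1807 genes in beta against alpha, beta against delta and alpha against delta, in place of 4231, 4869 and 3868 by edgeR. With a pseudocount of 0.1 it called 1819, 2480 and 1782, and in alpha against delta the split turned to 986 higher and 796 lower from 1748 and 2120. After rescaling TPM without ribosomal RNA it called 2278, 3446 and 1802, with 1554 higher and 724 lower in beta against alpha and 2384 and 1062 in beta against delta. The median log2 difference of all genes moved with these scales, from -0.02, -0.02 and -0.01 to -0.06, 0.10 and 0.15 on log2(TPM + 1), and to 0.13, 0.245 and 0.10 after rescaling. Testing against a log2 fold change of 1 left 1211, 1468 and 1039 genes. Members called fell from 5 to 3 in beta against delta under both TPM settings and the fold test, and from 4 to 1 in alpha against delta, or 2 with rescaled TPM. Other pathway genes called were 9, 14 and 5 with a pseudocount of 1, 10, 14 and 7 with a pseudocount of 0.1, 17, 17 and 7 with rescaled TPM and 8, 7 and 3 in the fold test, in place of 28, 30 and 20, and 12 in alpha against delta on the deposited normalised values.

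The values that changed sign were of Insr, Igf1r, Irs2 and 1 ratio. Insr in beta minus alpha was 0.057 on the deposited normalised values and 0.24 with rescaled TPM, beta minus delta was 0.014, 0.016 and 0.18 on TPM with pseudocounts of 1 and 0.1 and on rescaled TPM, and alpha minus delta was 0.014 and 0.017 with these pseudocounts. Igf1r in alpha minus delta was -0.013 with the stricter filter, -0.0093 on the deposited values, -0.012 with the replicate block and -0.012 without beta replicate 2 and delta replicate 3, and -0.10 to 0.15 with 1 library left out. Irs2 in alpha minus delta was -0.0099 with the stricter filter, -0.063 without those 2 libraries, and -0.078 to 0.17 with 1 library left out. The log2 ratio of Igf1r to Insr in alpha minus delta ran from -0.042 to 0.35 with 1 library left out.

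The replicate numbers are not stated to pair samples, and deviations of same-numbered libraries correlated at 0.0024 to 0.126, against -0.121 to 0.031 for different numbers, with beta replicate 2 closer to delta replicate 3 (0.021) than to delta replicate 2. With the replicate block 4625, 5241 and 4294 genes, and 6, 5 and 4 members, were called. Counts of a few reads limit Igf1, Igfbp3 and Igfbp4.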
